A study of Rattus norvegicus with 6 samples.

Results

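The genes described are Phlda1 and 9 genes that extracellular signal-regulated kinase (ERK) signalling is known to induce and that mostly damp it: Dusp4, Dusp5, Dusp6, Spry1, Spry2, Spry4, Spred1, Etv4 and Etv5. They are 10 of the 18166 rat genes that a feature of the array names, and each had exactly 1 feature. Phlda1 was chosen by its signal in this same comparison, for being lower in induced cells, so its values are a description and carry no test. The other 9 were listed for their place in the pathway, with results of these arrays already known.

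RNA came from adipose-derived stem cells (ADSCs), the fat tissue precursors that can turn into adipocytes, taken from the inguinal fat of female Wistar rats aged 2 weeks. The 3 control arrays hold ADSCs grown in α-MEM with 10% fetal bovine serum. The 3 induced arrays hold ADSCs kept for 7 days in α-MEM with 20% serum, 5 µg/ml insulin, the glucocorticoid dexamethasone at 1 µM, and 0.5 mM of the phosphodiesterase inhibitor 3-isobutyl-1-methylxanthine. The effects of serum and of each inducer therefore cannot be told apart, and the sources used here do not give how long control cells were cultured. The labels call the samples biological replicates without naming animals, so the tests measure the spread between these cultures.

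Growth factors acting on receptor tyrosine kinases switch on Ras, which starts a chain of kinases ending in ERK. Active ERK raises transcripts of its own brakes. These include dual-specificity phosphatases (Dusp genes), which strip the activating phosphates from ERK, and Sprouty and Spred proteins (Spry and Spred genes), which act upstream at the level of Ras and Raf. Levels of such transcripts are often read as a gauge of recent ERK output. Etv4 and Etv5 are ETS transcription factors induced downstream of fibroblast growth factor receptors. Phlda1 encodes a pleckstrin homology-like protein that serum and growth factors induce. In fat cell precursors ERK activity is known for a part in the early, proliferative phase of adipogenesis, while sustained activity can hold back Pparg.

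All values are log2 signals after RMA, so a difference of 1 is 2-fold. Differences are induced minus control with the standard error (SE) of a limma fit over all 18166 genes, and adjusted p-values are Benjamini-Hochberg values over the same genes. The level of a gene cannot be set against that of another, because each feature has its own brightness. In such bulk samples, fewer cells that express a gene and less RNA per cell cannot be told apart.

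Phlda1 differed most. Control replicates 1 to 3 read 9.31, 8.63 and 9.07, and induced replicates 1 to 3 read 6.75, 7.01 and 6.42. All induced arrays lay below all control arrays, with a gap of 1.62 between the groups. The means were 9.001 ± 0.34 and 6.73 ± 0.29 (SD, n = 3 each), a difference of -2.27 (SE 0.22), or 4.83-fold lower. With any 1 array left out the difference ran from -2.46 to -2.12. Of its relatives in the same protein family, Phlda2 stood at -0.16 (SE 0.13, adjusted p = 0.603) and Phlda3, a repressor of Akt signalling, at 0.65 (SE 0.54, adjusted p = 0.585). The Phlda3 groups overlapped, and without induced replicate 3 its difference was 0.08.

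**Figure D1:**
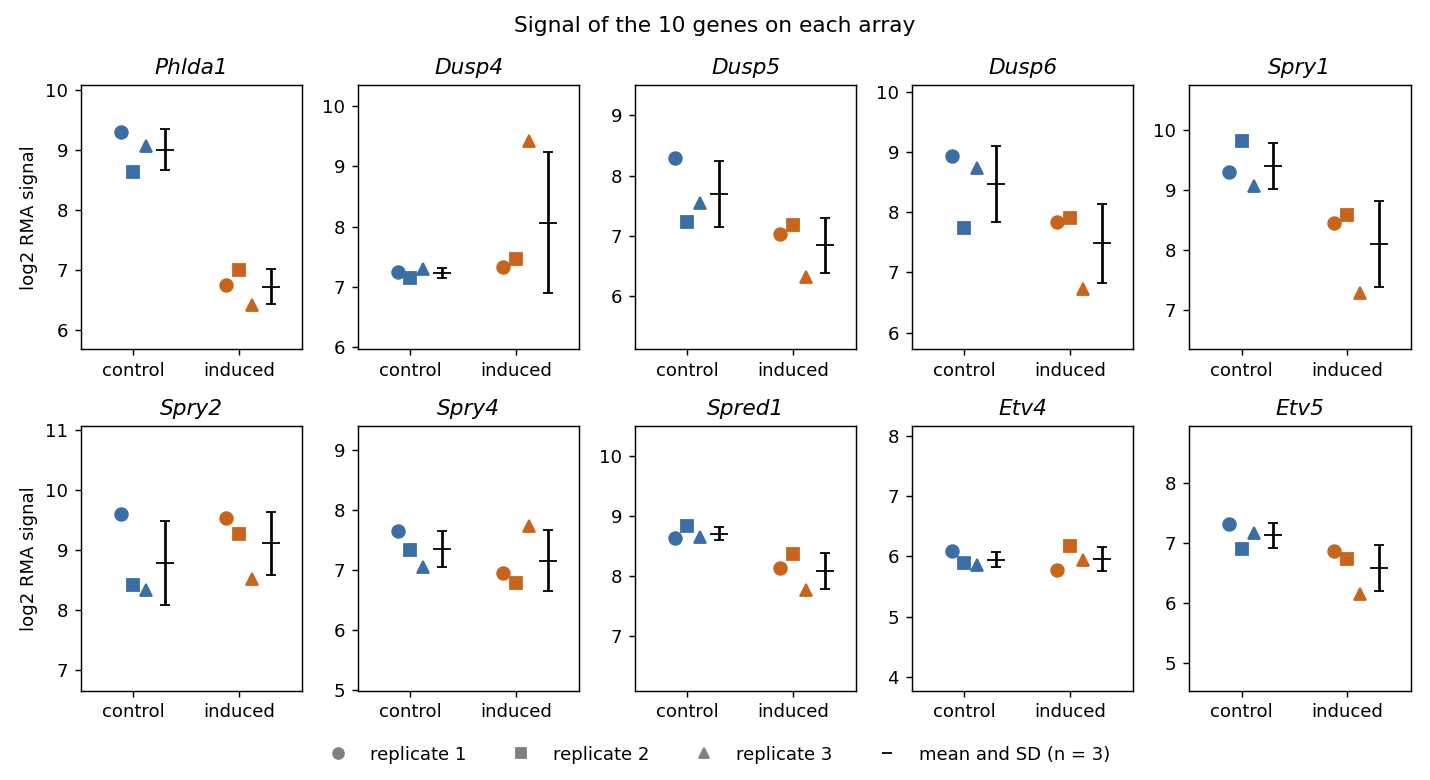
Log2 RMA signal of each gene (vertical axis, the same span in every panel) on the 3 control and 3 induced arrays, with marker shape for the replicate and black bars for mean and SD. Phlda1 separates the groups widely, Dusp4 is high on induced replicate 3 alone, and Dusp6, Spry2, Spry4 and Etv4 overlap between the groups.

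Among the 9 feedback genes none passed the test (0 of 9, limma adjusted p), against 0.749% of all genes called in either direction. At an unadjusted p under 0.05 there were 4 of 9 lower and 0 higher, beside 9.51% and 8.13% of all genes. Estimates were negative for 6 of 9, beside 52.4% of all genes, with a median of -0.54 beside -0.01 for all genes. For Spry1, Dusp5, Spred1 and Etv5, all 3 induced arrays lay below all 3 control arrays. These are 4 of 9, where 13.4% of all genes show this. Over all 6 arrays the estimates were lower for Spry1, Dusp6, Dusp5, Spred1 and Etv5, within their SE of 0 for Etv4, Spry4 and Spry2, and higher for Dusp4. This grouping depends on induced replicate 3, without which Spry4 stood at -0.48 and Dusp4 at 0.17. The differences between these genes were not tested.

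Spry1 had the lowest estimate of the 9. It is a Sprouty protein that blocks growth factor signalling towards Ras. It read 9.30, 9.81 and 9.06 in control and 8.44, 8.58 and 7.28 in induced cells, so the groups did not overlap. The difference was -1.29 (SE 0.38, adjusted p = 0.165), from 9.39 ± 0.38 to 8.10 ± 0.71 (SD, n = 3 each). Induced replicate 3 was the lowest array, and without it the difference was -0.88 (SE 0.22, adjusted p = 0.1).

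Spry2 and Spry4 belong to the same family, and both overlapped between the groups. Spry2 read 9.60, 8.43 and 8.34 in control and 9.54, 9.28 and 8.53 in induced cells. Replicate 1 was the highest array in both groups (difference 0.33, SE 0.40, adjusted p = 0.739, 95% interval -0.64 to 1.30). Its estimate depended on single arrays, from 0.10 without control replicate 3 to 0.73 without control replicate 1. Spry4 read 7.65, 7.34 and 7.05 in control and 6.96, 6.78 and 7.74 in induced cells. Its induced replicates 1 and 2 lay under every control array while induced replicate 3 lay above them all, and the difference was -0.19 (SE 0.28, adjusted p = 0.79). Without induced replicate 3 it was -0.48 (adjusted p = 0.252).

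Spred1, which brings the Ras inhibitor neurofibromin to the membrane, varied little within control. It read 8.64, 8.83 and 8.64 there and 8.13, 8.36 and 7.76 in induced cells, with no overlap. The difference was -0.62 (SE 0.17, adjusted p = 0.152), a smaller step than for Spry1, but also against a smaller spread (control SD 0.11). Induced replicate 3 was again the lowest array.

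Dusp5 and Dusp6, the nuclear and the cytoplasmic phosphatase that act selectively on ERK, were lower on average and varied within control. Dusp5 read 8.30, 7.23 and 7.54 in control and 7.03, 7.18 and 6.32 in induced cells. The groups were apart by only 0.05, between control replicate 2 and induced replicate 2 (difference -0.84, SE 0.33, adjusted p = 0.267). Dusp6 read 8.93, 7.74 and 8.73 in control and 7.83, 7.90 and 6.73 in induced cells. Control replicate 2 lay below induced replicates 1 and 2, so the groups overlapped (difference -0.98, SE 0.42, adjusted p = 0.294). For both genes control replicate 1 was the highest and induced replicate 3 the lowest array. Without induced replicate 3 the differences were -0.58 and -0.60 (adjusted p = 0.376 and 0.423), and without control replicate 1 that of Dusp5 was -0.54.

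Dusp4, a nuclear phosphatase that acts on ERK and on stress-activated kinases, went the other way, and on 1 array. It read 7.24, 7.14 and 7.29 in control, 7.32 and 7.46 on induced replicates 1 and 2, and 9.42 on induced replicate 3. That array exceeded each of the others by at least 1.95, while the other induced arrays were just above control. The difference was 0.84 (SE 0.53, adjusted p = 0.474), and without induced replicate 3 it was 0.17 (SE 0.12, adjusted p = 0.547). Over all genes, 213 (1.17%) read at least 1.5 higher on induced replicate 3 than on every other array, Dusp4 among them, and 135 (0.743%) at least 1.5 lower, with no gene of the 10.

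Etv5 and Etv4 are close relatives among ETS factors. Etv5 read 7.32, 6.91 and 7.16 in control and 6.87, 6.74 and 6.16 in induced cells, the groups being apart by 0.04 (difference -0.54, SE 0.22, adjusted p = 0.269), and without induced replicate 3 the difference was -0.32 (adjusted p = 0.337). Etv4 read 6.09, 5.89 and 5.86 in control and 5.78, 6.17 and 5.94 in induced cells. It was dim, with all arrays under 6.46, the mean signal of the median gene, and its groups overlapped (difference 0.02, SE 0.14, adjusted p = 0.967, 95% interval -0.32 to 0.35). RMA gives no detection call, so whether Etv4 was expressed at all cannot be read from these values.

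**Figure D2:**
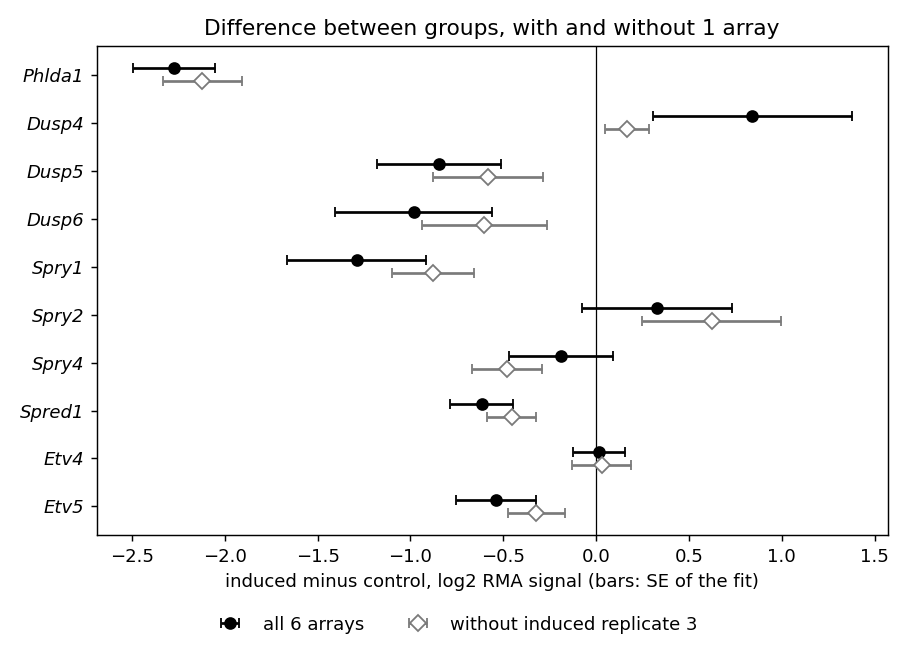
Induced minus control difference (horizontal axis, log2 RMA signal) of each gene with all 6 arrays (filled circles) and without induced replicate 3 (open diamonds), bars being the SE of the fit. Phlda1 stays near -2.27 and -2.12, Dusp4 moves from 0.84 to 0.17, and Spry1, Dusp5, Dusp6, Spred1 and Etv5 keep negative estimates that are nearer 0.

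Induced replicate 3 recurs in these values. It was the lowest of the 6 arrays for 6 of the 10 genes (Phlda1, Dusp5, Dusp6, Spry1, Spred1, Etv5) and the highest for Dusp4 and Spry4, where it was lowest for 28.9% and highest for 26% of all genes. The 9 feedback genes averaged 8.12, 7.70 and 7.74 in control and 7.54, 7.61 and 7.32 in induced cells, replicates in order. With that array left out, 5 of the 9 feedback genes had all induced below all control arrays (Spry4 joined Spry1, Dusp5, Spred1 and Etv5), where 18.3% of all genes did.

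The same array stood apart in cell type markers. The mean of 12 mature adipocyte markers such as Adipoq and Plin1 was 8.37, 6.90 and 6.73 in control and 10.65, 10.66 and 11.55 in induced cells. All 12 genes were higher on every induced array than on any control array, where 12% of all genes were. The mean of 11 mesenchymal stromal markers ran from 11.17 to 11.18 in control and was 10.74, 10.83 and 9.93 on induced replicates 1 to 3. The mean of 12 cell division genes was 8.88 to 9.52 in control and 8.22, 8.45 and 7.68 in induced cells, and induced replicate 3 was the lowest array for all 12. Macrophage and leukocyte markers (12 of 13 listed were measured) averaged 5.604 to 6.79 in control and 5.97 to 7.37 in induced cells. With all 6 arrays 0 of these 12 passed, all 12 overlapped between the groups, and 9 estimates were positive and 3 negative. Without induced replicate 3, 363 of 18166 genes passed as higher, and 3 of the 12 did, the complement genes C1qa, C1qb and C1qc. Of these C1qb read 8.17 and 7.60 on induced replicates 1 and 2, 4.92 on induced replicate 3 and 4.96 to 5.09 in control. The mean of the endothelial markers (6 of 8) was 4.95 to 5.17 on every array, with differences of single genes from -0.74 (Tek) to 0.16 (Cldn5). The mean of the mural cell markers (7 of 7) was 6.03 to 6.46 in control and 6.26 to 6.87 in induced cells. That mean joined 4 positive and 3 negative estimates, from -0.58 (Des) to 2.42 (Mcam). Without induced replicate 3, Mcam stood at 1.46. The part of these shifts in the values of Phlda1 and the feedback genes was not tested.

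**Figure D3:**
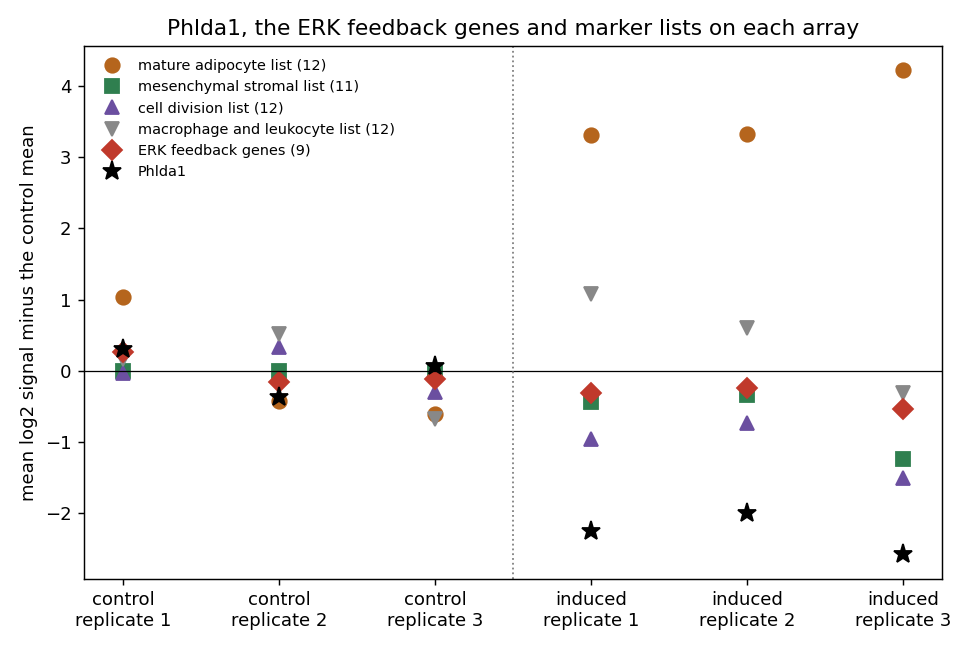
Signal on each array minus the mean of the 3 control arrays (vertical axis, log2) for Phlda1, the mean of the 9 ERK feedback genes and the means of 4 marker lists, with the number of genes in parentheses. Phlda1 is low on all induced arrays, the mean of the feedback genes is only slightly below control, and induced replicate 3 has the highest adipocyte and the lowest stromal and cell division means.

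Promoter sequence is shown for Phlda1, Spry1 and Dusp5, the 3 genes with the lowest estimates among those whose groups did not overlap. Each line gives the 250 bases before the RefSeq start in GRCr8, 5′ to 3′ on the plus strand. These are chr7:48853440-48853689 for Phlda1, chr2:122485097-122485346 for Spry1 and chr1:262543524-262543773 for Dusp5. Capitals mark matches, on either strand, to the 7 motifs listed after the sequences.
Phlda1: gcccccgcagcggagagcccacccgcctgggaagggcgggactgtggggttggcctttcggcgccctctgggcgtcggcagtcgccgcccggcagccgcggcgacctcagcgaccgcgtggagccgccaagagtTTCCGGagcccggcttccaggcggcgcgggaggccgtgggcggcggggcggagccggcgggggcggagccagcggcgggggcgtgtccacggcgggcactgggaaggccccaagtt
Spry1: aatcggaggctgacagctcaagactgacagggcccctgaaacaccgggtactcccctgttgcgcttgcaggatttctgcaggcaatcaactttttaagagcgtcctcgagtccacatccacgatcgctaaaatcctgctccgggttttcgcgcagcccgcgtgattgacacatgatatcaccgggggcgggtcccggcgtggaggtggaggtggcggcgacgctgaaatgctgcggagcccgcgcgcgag
Dusp5: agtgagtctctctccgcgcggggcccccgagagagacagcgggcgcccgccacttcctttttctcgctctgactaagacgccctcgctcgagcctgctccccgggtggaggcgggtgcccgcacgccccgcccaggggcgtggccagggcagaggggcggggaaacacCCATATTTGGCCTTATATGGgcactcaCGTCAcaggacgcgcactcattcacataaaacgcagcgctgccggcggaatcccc

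The motifs were the ETS core CCGGAA, the CArG box bound by serum response factor, the cAMP response element TGACGTCA and its half-site TGACG, the AP-1 site TGANTCA, the paired glucocorticoid receptor half-sites ACANNNTGT and the TATA box TATAAA. A full cAMP response element holds its half-site, so those matches overlap. RefSeq windows were found for 8 of the 10 genes, with 2 windows for Spry2. Dusp4 and Etv4 were not matched.

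Dusp5 held 2 CArG boxes side by side, CCATATTTGG at 82 to 73 and CCTTATATGG at 72 to 63 bases before the start, and a half-site of the cAMP response element 55 to 51 bases before it. A CArG box was found in 1.497% of all 33469 windows of this length, and the half-site in 18.2%. The ETS core was in the windows of Phlda1 (116 to 111 bases before the start), Spry2 and Spry4, and in 12.6% of all windows. The paired glucocorticoid receptor half-sites were in those of Dusp6 and Spry2, and in 5.81% of all. The Spry1 window held no match to any of the 7. The full cAMP response element (1.59% of all windows), the AP-1 site (6.34%) and the TATA box (12.9%) matched none of the windows of these genes. A match is a run of letters and does not show that a factor binds there.

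Around the feedback genes, 98 of 108 listed genes of the pathway were measured. Of these 1 passed the test, higher, and 0 lower, beside 0.479% of all genes called higher and 0.27% lower. The median was -0.20, and at an unadjusted p under 0.05 there were 22 lower and 6 higher of 98, where 9.51% and 8.13% of all genes were. Induced replicate 3 was the lowest array for 50 of the 98 (28.9% of all genes), and without it the median was -0.11.

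The gene that passed was Met, the receptor for hepatocyte growth factor. It read 6.71, 7.04 and 6.06 in control and 8.69, 8.54 and 8.67 in induced cells, so the induced arrays lay close together and well above control. The rise was 2.03 (SE 0.25, adjusted p = 0.0289). It no longer passed when control replicate 1 was left out (adjusted p = 0.0697), nor with control replicate 2 (0.0541), induced replicate 1 (0.152) or induced replicate 2 (0.119) left out, the differences then being 2.00 to 2.25. The other 19 of 20 receptor tyrosine kinases did not pass. Axl stood at -1.03 (SE 0.54, adjusted p = 0.38), Egfr at -0.95 (adjusted p = 0.461), Pdgfra at -0.88 (adjusted p = 0.617) and Fgfr1, the main fibroblast growth factor receptor of mesenchymal cells, at -0.64 (SE 0.21, adjusted p = 0.203). Axl, Egfr and Pdgfra were low on induced replicate 3 alone (8.50, 7.20 and 9.05, against 10.38, 9.33 and 11.61 or more on the other arrays). Without it Axl stood at -0.37, Egfr at -0.21, Pdgfra at 0.09 and Fgfr1 at -0.40. Epha2 and Epha4, ephrin receptors whose transcripts respond to ERK, stood at -0.44 and -0.79 (adjusted p = 0.354 and 0.232), and Epha2 at -0.27 without induced replicate 3.

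Among 21 growth factor ligands 0 passed. Nrg1, a ligand of the ErbB receptors, read 7.20, 6.99 and 8.13 in control and 6.03, 5.98 and 6.21 in induced cells (difference -1.37, SE 0.29, adjusted p = 0.098). Hbegf, a ligand of the EGF receptor, stood at -1.26 (SE 0.30, adjusted p = 0.116), from 9.42 ± 0.17 to 8.16 ± 0.61 (SD, n = 3 each). For both genes the induced arrays all lay below control.

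Of the kinases and adaptors between receptor and ERK, 16 genes were measured and 0 passed, with a median of -0.11. The differences ran from -0.45 (Rras, a Ras-related GTPase, adjusted p = 0.169) to 0.72 (Rps6ka3, a kinase that ERK activates, SE 0.14, adjusted p = 0.082). In 6 of the 16 all induced arrays lay below all control arrays, and in 3 all lay above. Of all genes, 13.4% lay below and 12% above.

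Of 19 other negative regulators of ERK, 0 passed and the median was -0.22. Dusp7, a cytoplasmic ERK phosphatase, read 10.55, 10.68 and 10.58 in control and 10.08, 9.69 and 9.58 in induced cells (difference -0.82, SE 0.15, adjusted p = 0.082), with no overlap. Spry3 stood at -0.77 (SE 0.48, adjusted p = 0.469) with overlapping groups, and at -1.17 without induced replicate 3. Dusp1, a phosphatase of several MAP kinases that glucocorticoids are known to induce, stood at 0.68 (SE 0.29, adjusted p = 0.299) and overlapped between groups. Without induced replicate 3 its difference was 0.95 (adjusted p = 0.091).

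Other transcripts that respond to ERK had mostly lower estimates: 15 of 20 were negative, beside 52.4% of all genes, with a median of -0.49, and 0 passed. In 10 of the 20 all induced arrays lay below all control arrays (13.4% of all genes), and induced replicate 3 was the lowest array for 15 (28.9% of all genes). Egr2, an immediate early zinc finger factor, read 9.27, 7.78 and 8.86 in control and 7.06, 7.11 and 5.69 in induced cells (difference -2.02, SE 0.51, adjusted p = 0.128). Lif, which encodes leukaemia inhibitory factor, read 7.30, 7.80 and 8.59 in control and 5.90, 6.23 and 5.90 in induced cells (difference -1.89, SE 0.32, adjusted p = 0.0635). Both had no overlap between the groups. Egr1 stood at -1.43 (SE 0.58, adjusted p = 0.272), reading 11.42 to 11.68 in control, 10.95 and 10.84 on induced replicates 1 and 2, and 8.71 on induced replicate 3. Without induced replicate 3, Lif (-1.83, adjusted p = 0.0495) and Egr1 (-0.70, adjusted p = 0.0482) passed, as did 3.07% of all genes in either direction. Ccnd1, which encodes cyclin D1, stood at -0.81 (SE 0.34, adjusted p = 0.285) without overlap, and at -0.42 without control replicate 1. Fos stood at 0.32 (SE 0.27, adjusted p = 0.607) with overlap, and at 0.55 without induced replicate 3.

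**Figure D4:**
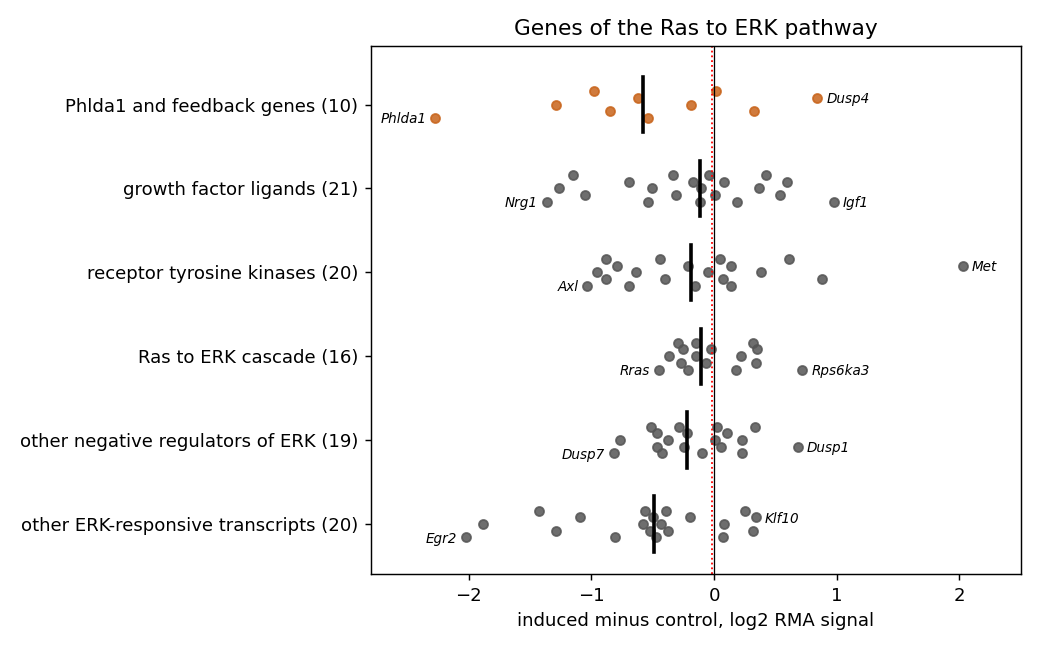
Induced minus control difference (horizontal axis, log2 RMA signal) of each measured gene, 1 point per gene and 1 row per list, with thick bars for the list medians, a dotted line for the median of all genes (-0.01) and the number of genes in parentheses. The lowest and highest gene of each row are named, and Met at 2.03 is the 1 gene of the lower 5 rows that passed the test.

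The genes whose pattern was most like that of Phlda1, by Pearson r over the 6 arrays, were Il1r2 (a decoy receptor for interleukin 1, r = 0.995), Vstm4 (r = 0.994), Rel (an NF-κB subunit, r = 0.990), Aldoc (the glycolytic enzyme aldolase C, r = 0.989) and Pafah1b3 (r = 0.986). They were taken from 3109 protein-coding genes at or above the median signal with a range of at least 1, of which 46 reached an r of 0.95. The closest to the mean of the 9 feedback genes were Fosl1 (an AP-1 subunit whose transcript responds to ERK, r = 0.992), Dynlt2b (r = 0.988), Acvr2a (an activin receptor, r = 0.979), Ston1 (r = 0.979) and Siah2 (a ubiquitin ligase, r = 0.978). Fosl1 read 10.25, 9.33 and 9.34 in control and 8.65, 8.89 and 8.08 in induced cells (difference -1.10, SE 0.32, adjusted p = 0.161). Each r includes the difference between the groups and is a description of these 6 arrays.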

How the data were processed

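RNA of 3 control and 3 induced cultures was measured on Affymetrix arrays from 6 µg of total RNA each. The authors deposited log2 values made with RMA, per the submitters' processing notes. The sources used here do not name its version. The log2 scale follows from the range of the values (array medians 5.64 to 5.73, highest value 13.55). RMA includes quantile normalization, so these values cannot show a change in the total RNA of a cell, and it compresses differences of dim genes. Arrays have no depth. Their number limits the precision.

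Of 36685 features, 18511 had 1 gene symbol, 575 several and 17599 none. Where a symbol had several features, the brightest on average stood for the gene (18166 genes). The groups were compared in R 4.3.3 with limma 3.58.1 (lmFit, eBayes, two-sided, 4 residual degrees of freedom, threshold 0.05 on the Benjamini-Hochberg adjusted p), fitted over all genes and tested on simulated data.

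The genes and lists were chosen with earlier results of these data known. Named genes are the 10, the called genes or the 2 largest differences of each pathway list, Fgfr1, Egfr, Pdgfra, Ccnd1, Epha2, Epha4, Dusp1, Egr1 and Fos, and the 5 genes most like each pattern. The array values and SE of Fosl1, also a listed gene, and the ends of each list in the plot of differences were added after their values were seen. The alternatives were the choice of feature, all features, a filter on dim genes, a trended robust prior, array weights, a common median, a replicate block and leaving out arrays. An exact permutation test of 3 against 3 arrays cannot go below 0.1, so none is given. Promoter windows come from RefSeq (GRCr8). The genome build of the array annotation is not named in the sources used here.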

Additional observations from a re-analysis of the deposited data

How the results depend on the processing

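Over 14 alternatives, the difference of Phlda1 ran from -2.46 to -2.05. Phlda1 was chosen for its fall on these same arrays, so its unchanged sign is no check of that fall. The median over the 10 genes, -0.58, ran from -0.69 to -0.43 (over 9 genes with the filter on dim genes). Of 125 values of the 9 feedback genes under these alternatives, 119 kept their direction and their side of the threshold. The exceptions were Spry1, which passed without both replicate 3 arrays (-1.04, adjusted p = 0.036, against 0.0606 to 0.409 elsewhere), so that 1 of the 9 feedback genes was then called, and the near-zero estimates of Etv4 and Spry4. With 1 array left out Etv4 ran from -0.086 to 0.11 and Spry4 from -0.48 to 0.00037, and without both replicate 3 arrays Etv4 was at -0.013. The cause was not tested.

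The count of called genes was 136. It was 69 over all features, 929 with array weights (474 higher, 455 lower, against 87 and 49), 12 with the replicate block, 740 without both replicate 3 arrays, and 2 to 557 with 1 array left out. The count of called pathway genes, 1 at first, was 0 over all features, 2 with the filter on dim genes, 6 with array weights, 0 with the replicate block, 5 without both replicate 3 arrays and 0 to 3 with 1 array left out. With 1 array left out, the count of feedback genes whose induced arrays all lay below control was 4 or 5 of 9, where 17.7% to 20.1% of all genes did, a check added after the data were seen. Deviations of same-numbered arrays from their group means correlated at 0.02, 0.12 and 0.15. Pairs with different numbers ran from -0.14 to 0.12, and control replicate 1 correlated better with induced replicate 2 (0.04) than with induced replicate 1. With 3 arrays per group these values cannot show whether a shared number marks a shared animal or batch, and the labels do not say. The replicate block changed no call among the 9 feedback genes. How much of the signal of dim genes such as Etv4 lies above background is not known here.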
